A study of Saccharomyces cerevisiae with 14 samples.

Results

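The 10 genes described here make and take up pyrimidines in budding yeast, Saccharomyces cerevisiae. They are URA1 (YKL216W_mRNA), URA2 (YJL130C_mRNA), URA4 (YLR420W_mRNA), URA5 (YML106W_mRNA), URA10 (YMR271C_mRNA), URA6 (YKL024C_mRNA), URA7 (YBL039C_mRNA), FUR1 (YHR128W_mRNA), FUR4 (YBR021W_mRNA) and the activator gene PPR1 (YLR014C_mRNA), 10 of 6612 transcripts quantified. They were chosen by name as a pathway, but with their counts, TPM values and genotype results in these same libraries already in view. URA3 was left out of the set because it has no reads. The tests below are therefore a description of the chosen genes, and the rule that picked them has no threshold.

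The libraries compare 2 strains with and without substitutions in Arp8, a subunit of the chromatin remodeller INO80. The ARP8 strain (yCFK51) is MAT a with his3Δ1, leu2Δ0, met15Δ0 and ura3Δ0. The arp8-AA strain (yPB4) is MAT a with his3Δ1, leu2Δ0 and ura3Δ0 and carries the S65A and S233A substitutions in ARP8, at serines that the study mapped as targets of the Dbf4-dependent kinase. Each genotype is 1 strain. Asynchronous cultures in rich medium gave 3 libraries per strain, and cultures arrested in G1 with the mating pheromone α-factor and then released gave 2 libraries per strain at 10 min and 2 at 20 min, which the labels number as biological replicates. The same 2 replicate numbers occur at both time points, so the 10 and 20 min libraries of equal number may come from the same culture. Depth ranged from 1864995 to 2582840 estimated counts in the asynchronous and from 2365901 to 6016858 in the synchronised libraries.

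Yeast builds uridine monophosphate (UMP) from bicarbonate, glutamine and aspartate through orotate, and can also bring in uracil and join it to phosphoribosyl pyrophosphate in 1 step. UTP inhibits the first enzyme of the de novo route. Ppr1, a zinc cluster transcription factor, activates several URA genes when the intermediates dihydroorotate and orotate accumulate. A ura3Δ0 cell lacks orotidine monophosphate decarboxylase, the last step to UMP, and lives on uracil from the medium.

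URA3 (YEL021W_mRNA) had 0 counts in 14 of 14 libraries, as the ura3Δ0 allele of both strains requires. A count of 0 allows up to 0.499 to 1.61 CPM (estimated counts scaled to equal depth), taking 3 counts per library as the floor and counting error only. MET17, the gene that the met15Δ0 allele removes, also had 0 counts in 14 of 14 libraries, although the genotype given for arp8-AA does not list that allele. The edited gene ARP8 was read at 130 to 217 CPM across all libraries. The summed CPM of 8 histone genes, which peak in S phase, followed the replicate number as well as the time. At 10 min it was 1105 and 5753 in ARP8 and 856 and 3372 in arp8-AA, in replicates 1 and 2, and at 20 min it was 5010.4 and 8478 in ARP8 and 2999 and 9141 in arp8-AA. Replicate 2 was therefore higher in all 4 synchronised groups, and arp8-AA was lower than ARP8 in 3 of the 4 pairs. The part of this difference in stage in the results below was not tested. In bulk RNA, fewer cells at a stage and less RNA per cell cannot be told apart.

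All 10 genes passed the filter on low counts, and their levels spanned a wide range. In the asynchronous ARP8 libraries, the TPM, a level scaled for transcript length, was 416 ± 8.44 (SD, n = 3) for URA5, 338 ± 28.3 for URA1, 222 ± 8.86 for URA7, 221 ± 1.86 for FUR1 and 137 ± 10.8 for URA2. URA6 at 59.9 ± 14.8 and URA4 at 50.3 ± 18.3 formed a middle step, and PPR1 at 8.61 ± 0.424, URA10 at 5.98 ± 1.50 and FUR4 at 4.96 ± 0.783 were the lowest. Neighbours whose ranges overlapped in this order were URA7 and FUR1, URA6 and URA4, and URA10 and FUR4. The order differed in synchronised arp8-AA cells, where URA1 stood first, at 784 ± 158 TPM (SD, n = 2) at 10 min and 974 ± 165 at 20 min, above URA5 at 598 ± 21.9 and 580 ± 72.8, with no overlap between the ranges. In ARP8 at 20 min the URA5 and URA1 ranges overlapped, since URA1 was 280 and 834 TPM in replicates 1 and 2. The 10 genes together took 0.385 to 0.408% of the counts in asynchronous and 0.402 to 0.636% in synchronised libraries.

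**Figure D1:**
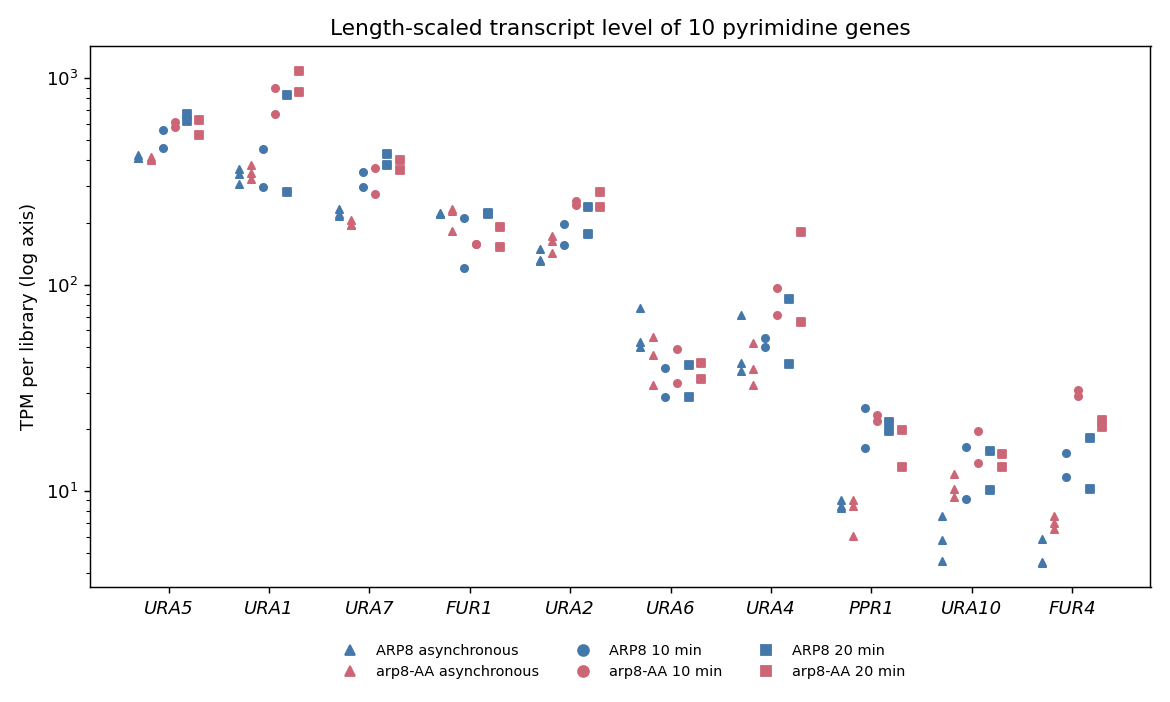
TPM of the 10 genes in each of the 14 libraries, on a log axis, ordered by the mean in asynchronous ARP8 cells; blue is ARP8, red is arp8-AA, and the marker shape gives the culture. URA1 reaches 1090.3 TPM in arp8-AA at 20 min, against 280 to 834 in ARP8 at 20 min, and PPR1, URA10 and FUR4 stay below 31 TPM in every library.

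No sign of reads shared with other genes was seen in the counts. All 140 gene-by-library counts were whole numbers within 0.001, from 10 to 15238, and no 31-base word of any of the 10 coding sequences occurs in another RefSeq coding sequence; transcripts without a RefSeq entry were not compared. The counting was run with default settings and no strand option is stated, so reads from a transcript on the opposite strand cannot be told apart. The closest pairs were URA5 and URA10, with 68.0% identical bases, and URA7 and URA8, with 71.6%.

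PPR1 (chrXII:172268-174982, minus strand of the R64 genome, 1 coding exon) encodes the activator. Its level was 42.3, 49.4 and 46.1 CPM in asynchronous ARP8 and 28.3, 44.4 and 42.8 CPM in arp8-AA. The level at 10 min was 96.7 and 81.6 CPM in ARP8 and 80.5 and 97.2 CPM in arp8-AA, and at 20 min 88.7 and 83.1 CPM in ARP8 and 75.3 and 58.3 CPM in arp8-AA. The genotypes overlapped in asynchronous cells and at 10 min, and arp8-AA was the lower at 20 min (log2 fold change -0.37, SE 0.19, adjusted p = 0.696 in edgeR). Within arp8-AA the level was lower at 20 than at 10 min, by -0.43 (SE 0.19, adjusted p = 0.484). PPR1 passed the test in none of the 8 comparisons.

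Ppr1 binds CGG triplets in opposite orientation separated by 6 bases, and URA1, URA3, URA4 and URA10 are the URA genes it is known to activate. The pattern CGGNNNNNNCCG, which reads the same on both strands, was looked for in the 500 bases before each start codon. It occurred before 2 of the 10 genes, URA1 and URA4, before 4 of 24 further pyrimidine genes (URA3, FUI1, FCY1 and PHM8) and before 162 of 6006 genes in all, or 2.70%. The longer form TTCGGNNNNNNCCGAA, which contains the first, occurred before URA1 and before 2 of the 6006 genes in all. A match says only that the letters are there, and no match says nothing of the factor. The sites before all 6 of these genes are shown because they share the letters, whichever way the genes went. RIB4 was added after its values were seen, because its level followed that of URA1 most closely. Capitals mark the CGG and CCG triplets, read 5′ to 3′ on the strand of the gene.
URA1, chrXI:24994-25023, plus strand: tttcttcacCGGgctttgCCGaaggttatt
URA1, chrXI:25025-25054, plus strand: cacgatcttCGGcattcgCCGaaaattttt
URA4, chrXII:963646-963675, plus strand: ttcatcattCGGagaattCCGatgaatcgg
URA3, chrV:116006-116035, plus strand: tttttgattCGGtaatctCCGagcagaagg
FUI1, chrII:140591-140620, minus strand: gttgatgctCGGgatttgCCGgtttcgtcc
FCY1, chrXVI:677016-677045, plus strand: ttgcaggggCGGtagtacCCGgagaccctg
PHM8, chrV:225562-225591, plus strand: gaaaaaagcCGGcggtcgCCGccggagatg
PHM8, chrV:225565-225594, plus strand: aaaagccggCGGtcgccgCCGgagatggtt
PHM8, chrV:225655-225684, plus strand: tcgtttctgCGGgtttttCCGtatttgccg
RIB4, chrXV:55282-55311, minus strand: ggaggttttCGGaggttcCCGtaggtcaat
RIB4, chrXV:55220-55249, minus strand: agatattttCGGaggtccCCGttaataaga
The second URA1 site is the one that fits the longer form. The sites before URA1 begin 212 and 181 bases before the start codon, that before URA4 130 bases, that before URA3 152 bases, that before FUI1 351 bases, that before FCY1 140 bases, those before PHM8 318, 315 and 225 bases, of which the first 2 overlap, and those before RIB4 198 and 136 bases.

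URA1 (chrXI:25215-26159, plus strand, 1 coding exon) encodes dihydroorotate dehydrogenase, which makes orotate. In asynchronous cells it was read at 533, 601 and 511 CPM in ARP8 and 544, 519 and 499 CPM in arp8-AA, and the strains overlapped (log2 fold change -0.07, 95% interval -0.25 to 0.10). At 10 min it was 354 and 705 CPM in ARP8 and 769 and 1149 CPM in arp8-AA, so that every arp8-AA library was above every ARP8 library. At 20 min it was 355 and 1089.7 CPM in ARP8 and 1016 and 1509.8 CPM in arp8-AA, and the ranges overlapped, though arp8-AA was the higher in each pair of equal replicate number. The ratio of arp8-AA to ARP8 was 2.17 and 1.63 at 10 min and 2.86 and 1.39 at 20 min. Over both time points the log2 fold change was 0.94 (SE 0.17, 95% interval 0.58 to 1.31), at place 9 by p among 5453 transcripts, and it did not pass the threshold in edgeR (adjusted p = 0.0968, range over alternatives 3.07e-05 to 0.999). It passed in DESeq2 (adjusted p = 3.07e-05), with no filter on low counts (0.0189), with all 14 libraries in one fit (0.0213) and without ARP8 20 min replicate 2 (log2 fold change 1.17, adjusted p = 0.0129). Replicate 2 exceeded replicate 1 in all 4 synchronised groups, by 1.49 to 3.07 times, as the histone sum did.

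URA4 (chrXII:963785-964879, plus strand, 1 coding exon) encodes dihydroorotase, the step before URA1. In asynchronous cells it was read at 132, 82.2 and 75.4 CPM in ARP8 and 88.6, 62.2 and 67.3 CPM in arp8-AA, lower in 3 of 3 pairs with overlapping ranges (log2 fold change -0.39, SE 0.12, adjusted p = 0.167 in edgeR). At 10 min it was 69.9 and 102 CPM in ARP8 and 96.7 and 146 CPM in arp8-AA. At 20 min it was 62.3 and 132 CPM in ARP8 and 92.9 and 297 CPM in arp8-AA, where replicate 2 of arp8-AA was the highest of all 14 libraries. The synchronised pairs were thus higher in arp8-AA in 4 of 4 cases, by 1.38 to 2.25 times, again with overlapping ranges. Over both time points the log2 fold change was 0.71 (SE 0.18, adjusted p = 0.324 in edgeR).

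URA2 (chrX:165723-172367, minus strand, 1 coding exon) encodes the large enzyme that carries out the first steps, carbamoyl phosphate synthesis and aspartate transcarbamylation, and that UTP inhibits. Its values lay between 1801 and 2719 CPM. They were 1938, 1801 and 1827 CPM in asynchronous ARP8 and 2039, 1904 and 1968 CPM in arp8-AA. At 10 min they were 1917 and 1993 CPM in ARP8 and 2369 and 2564 CPM in arp8-AA, and at 20 min 1840.3 and 2551 CPM in ARP8 and 2719 and 2685 CPM in arp8-AA. The strains did not overlap at either time point and overlapped in asynchronous cells, and arp8-AA was the higher in 7 of 7 pairs. The log2 fold change over both time points was 0.32 (SE 0.11, adjusted p = 0.681 in edgeR).

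URA5 (chrXIII:56773-57453, plus strand) and URA10 (chrXIII:806865-807548, minus strand), each with 1 coding exon, encode the major and minor orotate phosphoribosyltransferase. URA5 was read at 423, 465 and 451 CPM in asynchronous ARP8 and 384, 421 and 397 CPM in arp8-AA. After 10 min it was 441 and 478 CPM in ARP8 and 445 and 525 CPM in arp8-AA, and at 20 min 527 and 586 CPM in ARP8 and 499 and 488 CPM in arp8-AA. The arp8-AA values were below all ARP8 values in asynchronous cells (log2 fold change -0.15, SE 0.08, adjusted p = 0.349 in edgeR) and at 20 min (-0.17, SE 0.14, adjusted p = 0.757), and overlapped them at 10 min. URA10 was close to the limit of the counting, with 5.97, 8.31 and 5.06 CPM in asynchronous ARP8 and 9.68, 9.87 and 11.6 CPM in arp8-AA. The log2 fold change there was 0.69 (SE 0.33, adjusted p = 0.337 in edgeR), with no overlap. In the synchronised libraries URA10 lay between 8.82 and 14.97 CPM and the strains overlapped at both time points. Per length, the URA5 level was 56.2 to 89.6 times that of URA10 in asynchronous ARP8 and 34.3 to 42.9 times in asynchronous arp8-AA. In synchronised cells this TPM ratio ranged from 29.9 to 66.8, and the strains overlapped.

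URA6 (chrXI:392526-393140, minus strand, 1 coding exon) encodes uridylate kinase, which turns UMP into UDP whatever its origin. It was read at 68.9, 50.3 and 47.6 CPM in asynchronous ARP8 and 45.8, 29.6 and 37.8 CPM in arp8-AA, without overlap (log2 fold change -0.56, SE 0.15, 95% interval -0.89 to -0.23, adjusted p = 0.115 in edgeR). The 10 min libraries held 19.7 and 35.5 CPM in ARP8 and 22.2 and 36.7 CPM in arp8-AA, and at 20 min 20.99 and 30.9 CPM in ARP8 and 24.1 and 33.8 CPM in arp8-AA. The synchronised pairs were higher in arp8-AA in 4 of 4 cases, by 1.03 to 1.15 times, while replicates of 1 group differed by 1.40 to 1.80 times. The log2 fold change over both time points was 0.13 (95% interval -0.20 to 0.46).

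URA7 (chrII:143989-145728, minus strand, 1 coding exon) encodes the major CTP synthase. It was read at 675, 733 and 779.9 CPM in asynchronous ARP8 and 562, 627 and 603 CPM in arp8-AA, without overlap (log2 fold change -0.29, SE 0.07, 95% interval -0.45 to -0.12, adjusted p = 0.104 in edgeR). The values at 10 min were 833 and 929 CPM in ARP8 and 632 and 942 CPM in arp8-AA, and at 20 min 964 and 1121 CPM in ARP8 and 852 and 1112 CPM in arp8-AA, with overlap at each time. Its paralogue URA8, the minor CTP synthase, was read at 161 to 188 CPM in asynchronous ARP8 and 184 to 239 CPM in arp8-AA (log2 fold change 0.20, adjusted p = 0.453). Per length, URA7 stood 4.03 to 4.19 times above URA8 in asynchronous ARP8 and 2.35 to 3.40 times in arp8-AA. In synchronised cells the TPM ratio was 5.48 to 10.2 in ARP8 and 3.66 to 11.4 in arp8-AA.

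FUR4 (chrII:281443-283344, plus strand, 1 coding exon) encodes the uracil permease, through which these ura3Δ0 cells take up uracil. It was read at 15.7, 21.7 and 16.7 CPM in asynchronous ARP8 and 22.3, 23.2 and 24.5 CPM in arp8-AA, without overlap (log2 fold change 0.38, SE 0.21, adjusted p = 0.408 in edgeR). Released for 10 min, it was 30.4 and 52.7 CPM in ARP8 and 72.8 and 87.0 CPM in arp8-AA, and at 20 min 28.8 and 52.2 CPM in ARP8 and 57.7 and 62.6 CPM in arp8-AA. The arp8-AA libraries were above the ARP8 libraries in all 3 conditions, and FUR4 was the only gene of the 10 for which the strains were apart in every condition. The share of all transcripts apart in every condition is not given, so this cannot be judged as a trait of FUR4. Over both time points the log2 fold change was 0.80 (SE 0.16, 95% interval 0.45 to 1.15), at place 19 by p of 5453, with an adjusted p of 0.119 in edgeR (range over alternatives 0.0254 to 0.999). It passed the threshold in DESeq2 (0.0254), with no filter (0.0404) and with all 14 libraries in one fit (0.0465).

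FUR1 (chrVIII:362115-362765, plus strand, 1 coding exon) encodes uracil phosphoribosyltransferase, which makes UMP from the uracil that FUR4 brings in. It was read at 213, 225 and 230 CPM in asynchronous ARP8 and 202, 230.1 and 164 CPM in arp8-AA. Values of 157 and 117 CPM in ARP8 and 113 and 128 CPM in arp8-AA at 10 min overlapped. At 20 min it was 176 and 180 CPM in ARP8 and 142 and 132 CPM in arp8-AA, without overlap (log2 fold change -0.38, SE 0.18, adjusted p = 0.696 in edgeR). The uptake gene and the salvage enzyme that follows it thus had log2 fold changes of opposite sign over both time points, 0.80 and -0.27. Neither passed the test in edgeR.

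**Figure D2:**
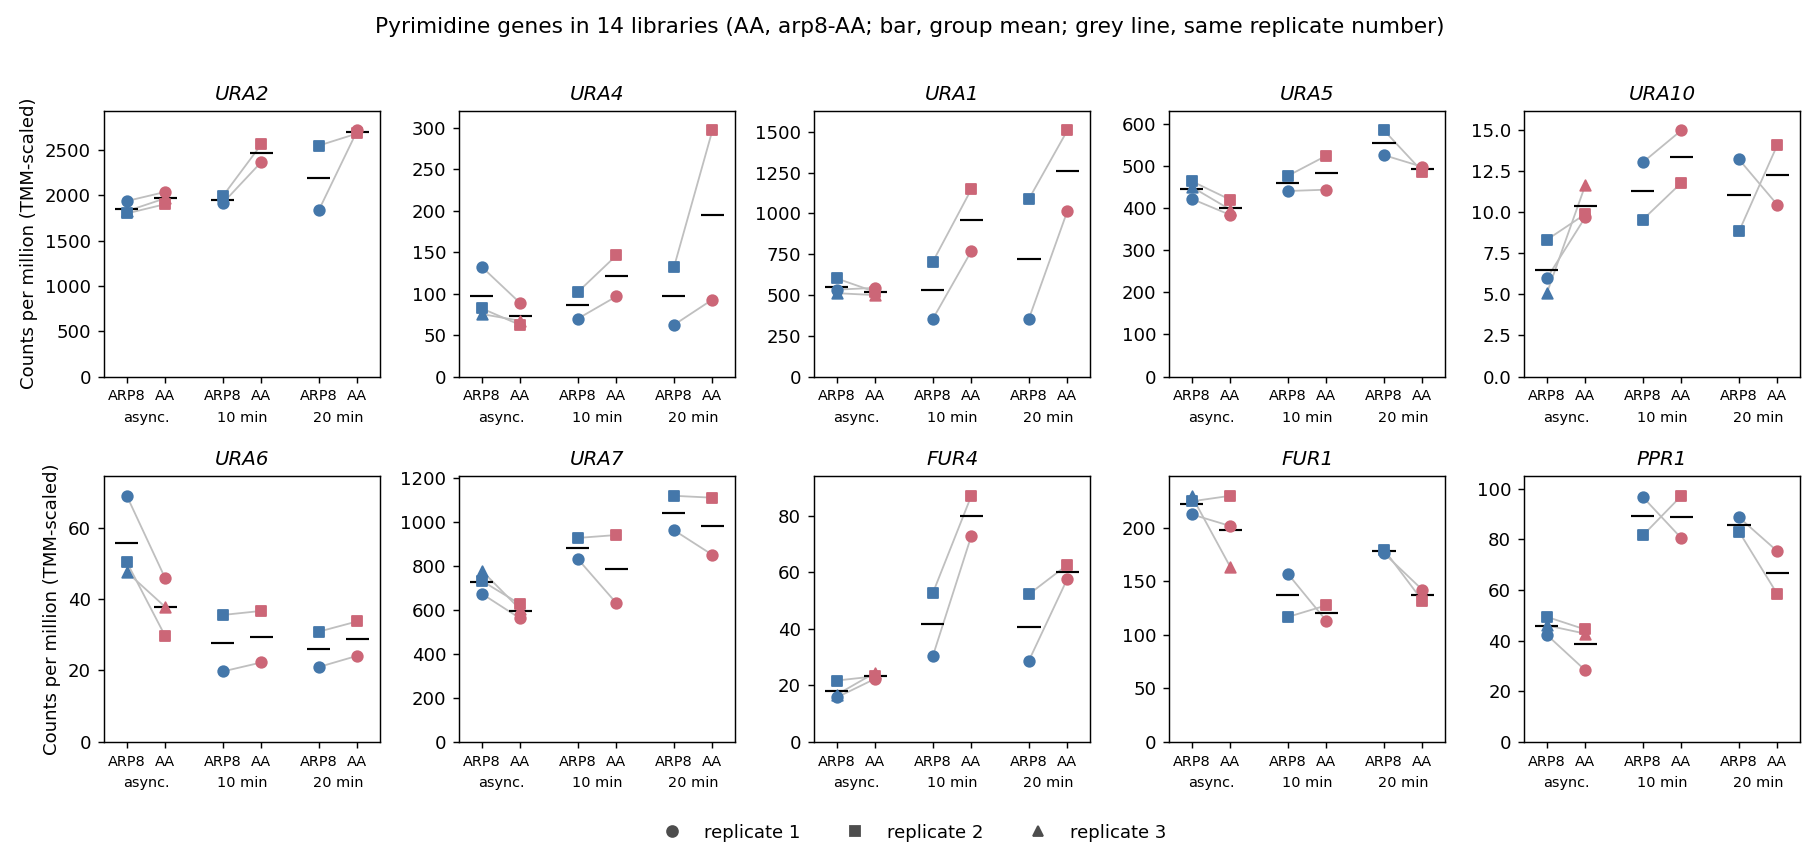
TMM-scaled CPM of each of the 10 genes in the 14 libraries, ARP8 in blue and arp8-AA in red, for asynchronous cells and 10 and 20 min after release; black bars are group means and grey lines join libraries of equal replicate number. For URA1 the 4 grey lines of the synchronised cultures all climb from ARP8 to arp8-AA, while those of the asynchronous cultures stay between 499 and 601 CPM.

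Counted over the set, 0 of the 10 genes passed an adjusted p of 0.05 in edgeR's quasi-likelihood test in asynchronous cells, against 0.942% of 5204 transcripts tested. At an unadjusted p under 0.05 there were 3, URA4, URA6 and URA7, all with lower values in arp8-AA, and 15.9% of all transcripts. DESeq2 called 0 of the 10, with 2 at an unadjusted p under 0.05. The shares of all transcripts at an unadjusted p, here and below, are those of edgeR, and none is given for DESeq2. The median log2 fold change was -0.16 over the 10 genes and 0.00 over all transcripts. The strains did not overlap for 5 of the 10, against 16.2% of all transcripts.

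At 10 min, 0 of the 10 passed in edgeR (0% of 5453 transcripts), 2 had an unadjusted p under 0.05 (URA1 and FUR4, higher in arp8-AA), against 2.82% of all transcripts, and DESeq2 called 0, with 2 at an unadjusted p under 0.05. The strains did not overlap for 3 of the 10, against 16.2% of all transcripts. At 20 min, 0 of the 10 passed in edgeR (0.0183% of all), 3 had an unadjusted p under 0.05 (URA1, URA4 and FUR4, higher in arp8-AA), against 7.15% of all transcripts, and DESeq2 called 0, with 3 at an unadjusted p under 0.05. The strains did not overlap for 5 of the 10 (URA2 and FUR4 higher, URA5, FUR1 and PPR1 lower in arp8-AA), against 29.3% of all transcripts. These overlaps were read on TMM-scaled CPM, and some differ in TPM. In TPM, URA4 at 10 min (49.6 to 55.1 in ARP8, 71.1 to 95.9 in arp8-AA) did not overlap. Nor did URA5 at 10 min (462 to 559 and 583 to 614) or URA1 at 20 min (280 to 834 and 857 to 1090). URA5 and URA6 in asynchronous cells and URA2, URA5 and PPR1 at 20 min overlapped in TPM.

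Over both time points, 0 of the 10 passed in edgeR (0.0917% of all), and 4 had an unadjusted p under 0.05 (URA1, URA2, URA4 and FUR4, higher in arp8-AA), against 6.36% of all transcripts. DESeq2 called 2, URA1 and FUR4, among 28 transcripts in all, where edgeR called 5. The median log2 fold change was 0.17 for the 10 genes and 0.00 for all transcripts. The pairs were also counted without a model. URA1, URA2, URA4, URA6 and FUR4 were higher in arp8-AA in 4 of 4 synchronised pairs, 5 of 10 genes against 8.34% of all transcripts. These 4 pairs hold only 2 replicate numbers, each at both time points, so they may not be independent. The fits over both time points have no term for a culture shared by the time points, so their SE may be too small. For those lower in 4 of 4, 0 of the 10, the share of all transcripts is not given, so this 0 cannot be judged.

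**Figure D3:**
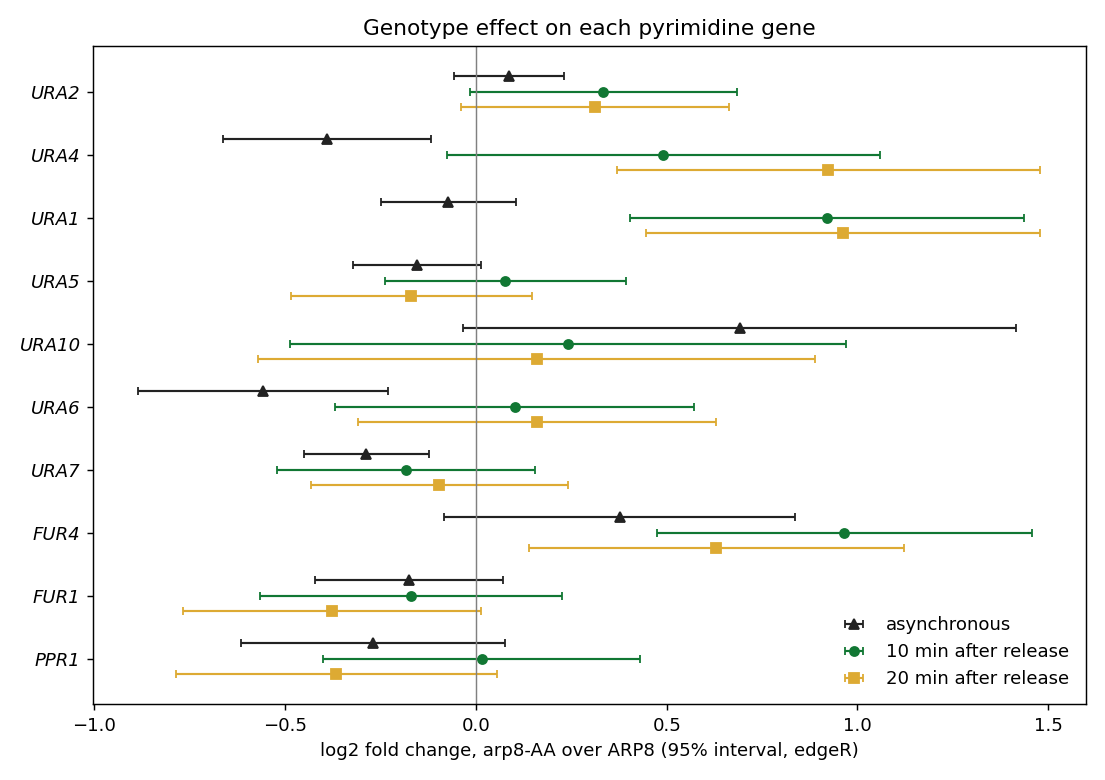
log2 fold change of arp8-AA over ARP8 for each of the 10 genes in asynchronous cells (triangles) and 10 min (circles) and 20 min (squares) after release, with 95% intervals from edgeR. The URA1 intervals lie above 0 at both time points (0.40 to 1.44 and 0.45 to 1.48) and span 0 in asynchronous cells, and the URA4 intervals lie below 0 in asynchronous cells and above 0 at 20 min.

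None of the 10 genes passed the test between the stages in edgeR. From 10 to 20 min, 0 of the 10 passed in ARP8 in edgeR (0.11% of all transcripts), with 0 at an unadjusted p under 0.05 against 10.1% of all, and the stages did not overlap for 3 of the 10 (URA5, URA7 and FUR1), against 31.3% of all transcripts. In arp8-AA, 0 of the 10 passed (0.0183% of all), with 1, PPR1, at an unadjusted p under 0.05 (0.0451) against 9.98% of all, and the stages did not overlap for 4 of the 10 (URA2, FUR1, FUR4 and PPR1), against 23.1% of all transcripts. DESeq2 called 0 in either strain, with 0 at an unadjusted p under 0.05. No difference in the genotype effect between 10 and 20 min passed for the 10 genes by the interaction term (0 of the 10 in edgeR and in DESeq2, 0% of all transcripts, 0 at an unadjusted p under 0.05 against 2.02% of all). For URA1 that difference was 0.04 with a 95% interval of -0.68 to 0.76, beside log2 fold changes of 0.92 at 10 min and 0.96 at 20 min.

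The genotype effect in synchronised cells was set against that in asynchronous cells in one fit of all 14 libraries. For URA1 the difference was 1.01 (SE 0.22), for URA4 1.09 (SE 0.26) and for URA6 0.68 (SE 0.21), which put them at places 3, 5 and 34 by p among 5493 transcripts. None passed in edgeR (adjusted p = 0.845 for each, 0 of the 10 and 0% of all transcripts called, 3 of the 10 and 5.79% of all at an unadjusted p under 0.05), and DESeq2 also called 0, with 3 at an unadjusted p under 0.05. URA4 and URA6 were lower in arp8-AA in 3 of 3 asynchronous pairs and higher in 4 of 4 synchronised pairs, a pattern that 0.81% of 5183 transcripts had. The experiments differ in culture and in library set as well as in synchrony, and these cannot be told apart. URA1 passed the threshold only without ARP8 20 min replicate 2 (log2 difference 1.26, adjusted p = 0.0177, range over alternatives 0.0177 to 1.00).

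The other genes of pyrimidine metabolism form a list of 24, of which 23 could be tested and URA3 could not. DCD1, deoxycytidine monophosphate deaminase, which feeds thymidylate synthesis, was read at 36.9, 24.5 and 23.8 CPM in asynchronous ARP8 and 5.21, 4.94 and 9.14 CPM in arp8-AA. Its log2 fold change was -2.13 (SE 0.30, adjusted p = 0.0118 in edgeR, lower in 3 of 3 pairs), and it lost the call without arp8-AA asynchronous replicate 2 (adjusted p = 0.0517, range over alternatives 0.000157 to 0.0523). DESeq2 gave DCD1 no adjusted p in asynchronous cells. DCD1 was also lower in 4 of 4 synchronised pairs, at 13.8 and 15.3 against 29.6 and 23.4 CPM at 10 min and 14.997 and 11.1 against 28.1 and 28.7 CPM at 20 min, where its log2 fold change over both time points was -0.97 (adjusted p = 0.104 in edgeR and 0.0495 in DESeq2).

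In the same list FUI1, the uridine permease, was higher in arp8-AA in 7 of 7 pairs. It was read at 80.8, 101 and 105 CPM in asynchronous ARP8 and 114, 143 and 153 CPM in arp8-AA, without overlap (log2 fold change 0.51, SE 0.10, adjusted p = 0.0506 in edgeR, range over alternatives 0.0166 to 0.499). It passed there with no filter on low counts (0.0166), without ARP8 asynchronous replicate 1 (0.0252) and without arp8-AA asynchronous replicate 1 (0.0171). At 10 min it was 74.2 and 226 CPM in ARP8 and 231 and 399 CPM in arp8-AA, and at 20 min 77.9 and 322 CPM in ARP8 and 276 and 359 CPM in arp8-AA. Over both time points the log2 fold change was 1.09 (SE 0.23, adjusted p = 0.169 in edgeR, and 0.0404 with no filter). At 10 min FUI1 did not pass in the main fit (adjusted p = 0.983 in edgeR) and was called by 1 of 14 alternatives. That was a fit of the 10 min libraries alone (adjusted p = 3.79e-07), which called 48 transcripts in all in place of 0. The permeases for uracil and for uridine, FUR4 and FUI1, thus both had higher values in arp8-AA in every pair of libraries, as did URA2. The share of all transcripts higher in every pair is not given. FCY1 (cytosine deaminase) and PHM8 (a nucleotide phosphatase), which hold the CGG and CCG letters as well, differed in direction. FCY1 was lower in arp8-AA in 4 of 4 synchronised pairs, at 112 and 121 against 137 and 164 CPM at 10 min and 118 and 156 against 145 and 158 CPM at 20 min. Its log2 fold change over both time points was -0.26 (SE 0.11, unadjusted p = 0.0402, adjusted p = 0.768 in edgeR). That of PHM8 was 0.37 (SE 0.30, adjusted p = 0.841), higher in 3 of 4 pairs. In asynchronous cells PHM8 was read at 7.09 to 13.4 CPM in ARP8 and 18.3 to 29.4 CPM in arp8-AA, without overlap. Its log2 fold change there was 1.11 (SE 0.27, adjusted p = 0.0953 in edgeR, and 0.0281 with no filter), higher in 3 of 3 pairs. In the 7 comparisons other than that of asynchronous cells, 0 of the 23 passed in edgeR, with 0 to 4 at an unadjusted p under 0.05, against 2.02 to 10.1% of all transcripts, and DESeq2 called 1, DCD1 over both time points. The median log2 fold change of the list lay between -0.05 and 0.04 in all 8 comparisons.

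**Figure D4:**
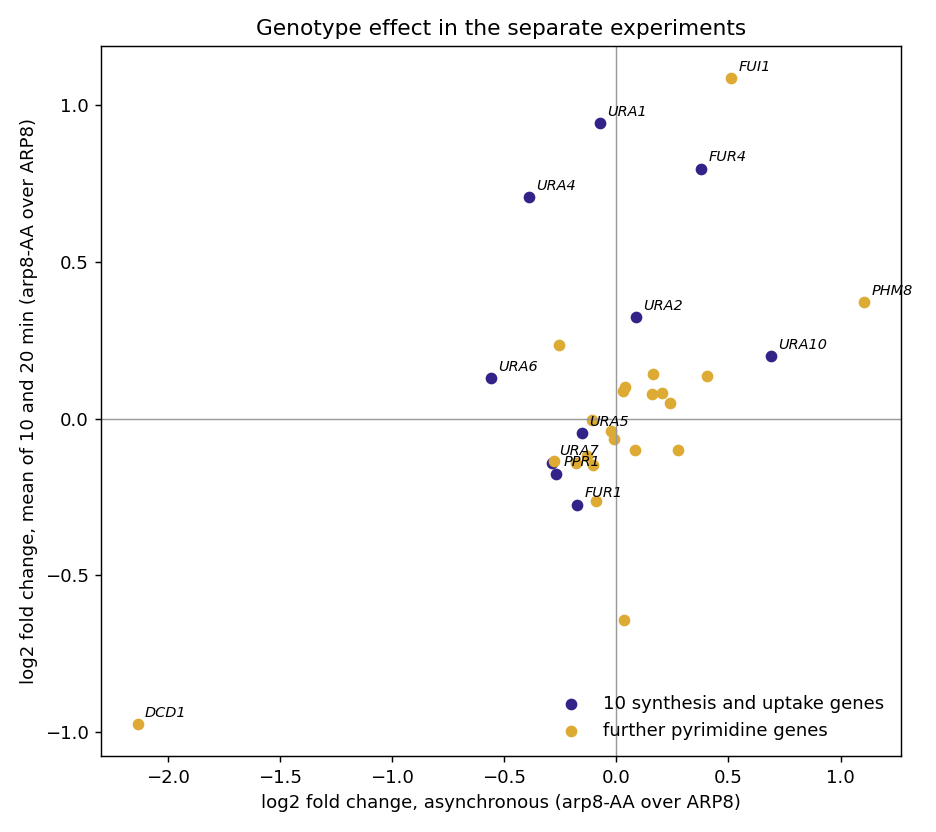
log2 fold change of arp8-AA over ARP8 in asynchronous cells (horizontal) against the mean of the 10 and 20 min effects (vertical), for the 10 genes (dark) and further pyrimidine genes (yellow). URA1 and URA4 lie in the upper left, at 0.94 and 0.71 on the vertical axis with values below 0 on the horizontal axis, FUI1 and FUR4 lie in the upper right, and DCD1 is the lowest on both axes.

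Across the 14 libraries the transcripts whose log2 CPM was most like that of URA1 were RIB4, which encodes lumazine synthase of riboflavin synthesis (Pearson r = 0.979), FUI1 (0.922) and URA2 (0.896). These are descriptions over libraries that share strains, cultures and depth, and that span both experiments. RIB4 was read at 144 and 234 CPM in ARP8 and 265 and 314 CPM in arp8-AA at 10 min, and at 146 and 292 against 271 and 332 CPM at 20 min. Its log2 fold change over both time points was 0.59 (SE 0.14, adjusted p = 0.242 in edgeR) and -0.10 in asynchronous cells. As shown above, RIB4 holds the CGG and CCG triplets at the same spacing at a pair of places.

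Likeness within the 10 genes varied from pair to pair, and no grouping was computed. URA1 and URA4 had r = 0.812 and URA1 and FUR4 r = 0.718, URA5 and URA7 had r = 0.836, and FUR1 and FUR4 had r = -0.872. URA5 was most like MAK21 (0.943), URA7 most like ECM1 (0.944) and PPR1 most like KAP95 (0.979), while URA4 was most like PFK27 (0.939) and FUR4 most like DOG2 (0.932). The r of PPR1 with genes that its product activates was 0.149 for URA1, 0.024 for URA4 and 0.408 for URA10. With FUR4, URA7 and URA5 the r of PPR1 was 0.662, 0.626 and 0.625. KAP95 was picked as the highest of all transcripts compared, so a gene named beforehand can hardly exceed it. The r of PPR1 over all transcripts is not given, so these values cannot be judged as low or high.

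**Figure D5:**
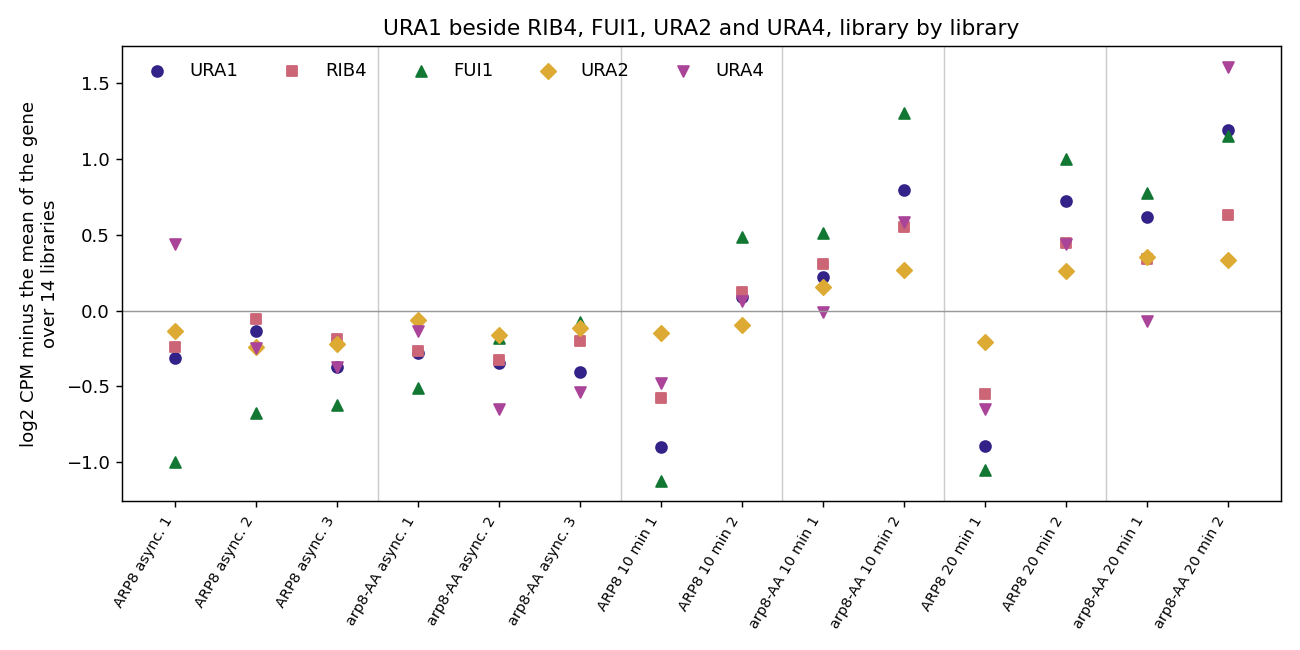
log2 CPM of URA1, RIB4, FUI1, URA2 and URA4 in each of the 14 libraries, each gene centred on its mean over the libraries, grouped by strain and culture. URA1 is lowest in replicate 1 of ARP8 at 10 and 20 min (354 and 355 CPM) and highest in replicate 2 of arp8-AA at 20 min (1509.8 CPM), and FUI1 and RIB4 are low in the first 2 of these libraries too.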

How the data were processed

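RNA depleted of rRNA was made into strand-directed libraries and sequenced paired-end. The authors quantified transcripts with kallisto 0.48 on the R64 yeast genome annotation and deposited estimated counts, which are not normalized, and TPM, which are scaled for effective length and depth. Estimated counts were rounded and tested with edgeR 4.0.16 (R 4.3.3), using TMM scaling, filterByExpr, the quasi-likelihood F-test and p-values adjusted by Benjamini and Hochberg across every transcript kept (5204 asynchronous, 5453 synchronised, 5493 in the fit of 14 libraries), with the replicate number as a block, as the study adjusted for the replicate. Samples of equal number deviated together (r = 0.174 to 0.329 asynchronous, 0.478 to 0.653 synchronised; with 2 replicates the deviations of different numbers are opposite by construction). CPM are TMM-scaled and were used for the overlap of the strains. TPM were used to compare levels between genes, and beside CPM where the overlap differed. The tests were also run on counts simulated from their own fitted means and spread, with libraries drawn independently. The outcome is not given here, and such counts cannot check for cultures shared between libraries. Alternatives were DESeq2 1.42.0, its size factors in place of TMM, no filter, no block, other sets of libraries in the fit, and leaving out each library. Transcripts whose log2 CPM (prior count 2) correlated best over the libraries were named for each gene. Promoter bases and coordinates come from the RefSeq R64 genome, with the window of 500 bases before the start codon, which can reach into neighbouring genes. Coding lengths matched those in the files. Of 6612 transcripts, 5929 matched RefSeq entries.

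The 10 genes and the list of 24 were chosen with earlier results of these data known. All 10 are named. Of the list, those past an adjusted p of 0.05, or otherwise among the 3 smallest p in a comparison, could be named, with URA3 and URA8. A result of that list is not reported here.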

Additional observations from a re-analysis of the deposited data

Results flagged for a closer look

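The genotype effect on URA4 and on URA6 had opposite signs in the separate experiments, with every asynchronous pair lower and every synchronised pair higher in arp8-AA. For URA4 the synchronised effect exceeded the asynchronous one by 1.09 on the log2 scale (unadjusted p = 0.000977, adjusted p = 0.845 in edgeR over 14 libraries), and for URA6 by 0.68 (unadjusted p = 0.00566, adjusted p = 0.845). The difference failed the correction for all transcripts in both genes. For URA6 the synchronised ratios of 1.03 to 1.15 were smaller than the spread between replicates.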

How the results depend on the processing

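For the 10 genes, the count of calls was 0 in all 8 comparisons and stayed at 0 under every alternative run but the following. At 10 min, a fit of that time point alone called 2, URA1 (0.91, adjusted p = 0.000155) and FUR4 (0.96, adjusted p = 0.00143), among 48 transcripts in all in place of 0. Over both time points, 2 were called with no filter on low counts, 2 by DESeq2 and 2 with all 14 libraries in one fit, in each case URA1 and FUR4 and among 25, 28 and 18 transcripts in all in place of 5, and leaving out 1 library gave 0 to 1, the 1 being URA1 without ARP8 20 min replicate 2. For the effect in synchronised minus asynchronous cells, leaving out 1 library gave 0 to 1, again URA1 without that library. Leaving out 1 library gave 0 in the other 6 comparisons. Without the replicate block, the edgeR fit called 0 of the 10 genes in each comparison, and 4 transcripts in all in place of 49 in asynchronous cells and 0 in place of 5 over both time points. DCD1 then lost its call (-2.12, adjusted p = 0.0523). Over these genes and the 5 further ones recomputed, 1552 values and counts kept their direction and side of the threshold, 19 crossed it from below, 2 from above, and 86 counts or uncalled values moved. The cause of these changes was not tested. With 2 libraries a group, the median SE of a log2 fold change was 0.21 at 10 min, and at 10 to 70 counts URA10 has the widest intervals.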

Other observations

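The CGG and CCG pattern was also read against the genotype effect over all genes, after the URA1, URA4 and FUI1 values had been seen and with no test. Of 151 tested transcripts with the pattern CGGNNNNNNCCG in the 500 bases before the start codon, the median log2 fold change of arp8-AA over ARP8 over both time points was 0.03, against 0.00 for 5199 without it. The arp8-AA library was the higher in 4 of 4 synchronised pairs for 25 of the 151 (16.6%) and for 417 of the 5199 (8.02%). The 25 include URA1, URA4 and FUI1, whose values had been seen, and RIB4, so that part of this share was known beforehand. The share lower in 4 of 4 pairs is not given for these sets. Whether the pattern bears on the genotype effect was not tested. In asynchronous cells the medians were -0.03 for 142 transcripts with the pattern and 0.00 for 4989 without it.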
